A study of Mus musculus with 8 samples.

Results

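The E2F and retinoblastoma family was examined in neonatal cardiomyocytes (NCMs) of mice exposed in utero to filtered air (FA) or diesel exhaust (DE). Its 10 members here were the 8 E2F genes, E2f1 to E2f8, and the retinoblastoma genes Rb1 and Rbl1. Each was found in the table of raw counts by matching its Entrez identifier to the gene symbol. They made up 10 of the 27179 genes in the table, and all 10 passed the filter on low counts, which left 14966 genes for testing. The third retinoblastoma gene, Rbl2, and the DP partners Tfdp1 and Tfdp2 were described beside them.

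E2F proteins are transcription factors that bind the promoters of genes needed to enter S phase and copy DNA. The retinoblastoma proteins, also called pocket proteins, bind E2Fs and hold these genes silent in resting cells, until cyclin-dependent kinases phosphorylate the pocket proteins and free the E2Fs. Heart muscle cells still divide in the fetus and leave the cell cycle around and soon after birth, and the pocket proteins are known for keeping them out of it.

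The study comprised 8 RNA-seq libraries, 4 FA and 4 DE, each from the NCMs of 1 male heart taken on the day of birth. The mothers were C57Bl/6J mice that breathed either FA or DE during gestation, and no genetic change is named for either group. In both groups the dissociated heart cells were incubated for 1 h with Ara-C, an inhibitor of DNA synthesis, so that fibroblasts could attach to the plate, and the cells left in suspension were frozen. The libraries were numbered 2, 3, 4 and 6 for FA and 1, 3, 5 and 7 for DE. Their names also carried a prefix, 11 for all FA libraries and for DE replicates 1 and 7, and 12 for DE replicates 3 and 5, whose meaning is not given in the sources used here. The sources also do not say which neonates shared a mother, so p-values measure only the spread between these libraries.

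Between 17943024 and 39839737 fragments were counted per library. Summed over 10 cardiomyocyte markers, FA libraries held 62520 to 65150 CPM (counts scaled to the size of the library) and DE libraries 53130 to 61200 CPM. Of these 10, the myosin heavy chain gene Myh6 was called lower, with means of 23300 CPM in FA libraries and 14620 CPM in DE libraries, Myh7 was called higher, with 10020 and 14490 CPM, and 8 were not called. Summed over 8 fibroblast markers, FA libraries held 2008 to 3461 CPM and DE libraries 3655 to 6177, so both sums were apart between the groups. Endothelial, smooth muscle, leukocyte, erythroid and mesothelial sums overlapped, and no marker found in the table was at 0 in all libraries. The part of these cell types in the results was not tested, and in such bulk samples fewer cells of a type and less RNA per cell cannot be told apart.

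Of the 10 members, 4 were called higher in DE NCMs and none lower. They were the activators E2f1 and E2f2, the atypical repressor E2f8 and the pocket protein gene Rbl1. A gene was called at an edgeR adjusted p of 0.05 or less with a difference of at least 25%, which held for 5.8% of all tested genes, 3.58% being higher and 2.22% lower in DE. In 6 members every DE library lay on one side of every FA library, 5 higher in DE and 1 lower, against 14.7% of all tested genes, of which 7.43% were higher and 7.26% lower. The median log2 fold change was 0.34 over the members and 0.00 over all tested genes.

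**Figure D1:**
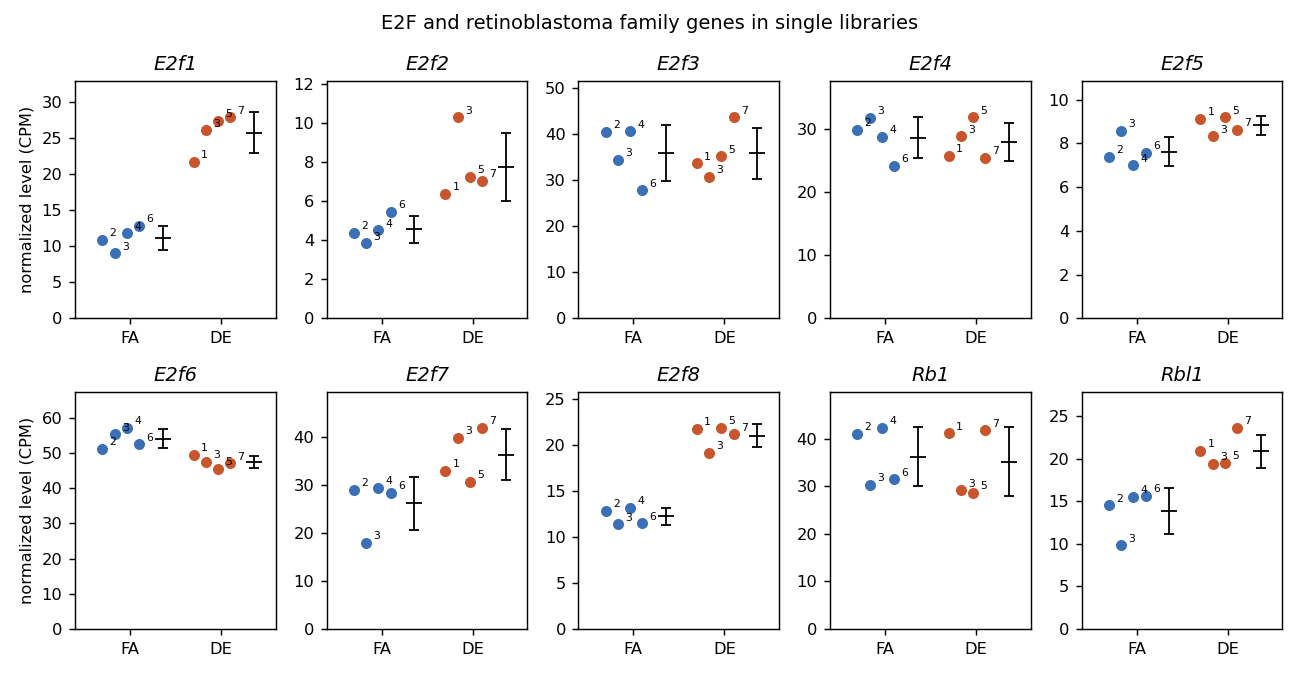
Normalized level of each member in CPM (vertical axes, each from 0) in the 4 FA libraries (blue) and the 4 DE libraries (orange), with the replicate number beside each point. Black bars give the mean and 1 SD. E2f1, E2f2, E2f7, E2f8 and Rbl1 show no overlap with DE above, E2f6 no overlap with DE below, and E2f3, E2f4, E2f5 and Rb1 overlap.

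E2f1, E2f2 and E2f3 encode the activator E2Fs, which switch on S phase genes and are the main partners of the RB1 protein. E2f1 lies on the minus strand of chromosome 2, from 154559400 to 154569892 in GRCm38, and was measured at 10.9, 9.02, 11.8 and 12.8 CPM in FA replicates 2, 3, 4 and 6. In DE replicates 1, 3, 5 and 7 it was at 21.7, 26.1, 27.4 and 27.9 CPM. The lowest DE library was thus well above the highest FA library, and FA replicate 3 was the lowest of all. The log2 fold change was 1.21 ± 0.13 (SE, n = 4 per group, edgeR adjusted p = 0.000739), with a 95% interval of 0.92 to 1.5.

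E2f2, on the plus strand of chromosome 4 from 136172274 to 136196057, had the fewest fragments of the members, 1424 over all 8 libraries. Its level was 4.38, 3.84, 4.51 and 5.46 CPM in the FA libraries and 6.38, 10.3, 7.26 and 7.04 CPM in the DE libraries. DE replicate 3 stood above the other DE libraries, and the groups did not overlap. The log2 fold change was 0.77 ± 0.18 (edgeR adjusted p = 0.0323). In the 6 libraries of prefix 11 alone it was 0.55 (edgeR adjusted p = 0.143), and without DE replicate 3 it was 0.60 (edgeR adjusted p = 0.0864), so the call was lost in both cases. It was also lost without FA replicate 2, 3 or 4 or DE replicate 5.

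E2f3, on the minus strand of chromosome 13 from 29906575 to 29986064, was at 40.5, 34.4, 40.6 and 27.8 CPM in FA and at 33.7, 30.8, 35.2 and 43.7 CPM in DE. Both group means were 35.8 CPM and the ranges lay over each other. The 95% interval of its log2 fold change, -0.32 to 0.31, contained none of the changes measured for E2f1, E2f2 or E2f8 (edgeR adjusted p = 0.992). With 4 libraries per group, true differences within that interval remain possible, and the interval is not a limit of detection.

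E2f4 and E2f5 encode E2Fs that act mainly as repressors with the pocket proteins p107 and p130 in resting cells. E2f4 lies on the plus strand of chromosome 8, from 105297663 to 105305370, and ranged from 24.2 to 31.8 CPM in FA and from 25.5 to 31.9 CPM in DE. Its log2 fold change was -0.03 ± 0.12 (edgeR adjusted p = 0.888), and it turned to 0.04 when libraries were scaled by their totals alone. E2f5, on the plus strand of chromosome 3 from 14578602 to 14606309, was at 7.38, 8.57, 7.0 and 7.57 CPM in FA and at 9.14, 8.32, 9.2 and 8.63 CPM in DE. Only DE replicate 3 fell within the FA range. The log2 fold change of 0.21 ± 0.12 did not pass the test (edgeR adjusted p = 0.274). Its exons share 26 bases with 1810022K09Rik on the other strand.

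E2f6 encodes an E2F that does not bind pocket proteins and represses genes as part of a polycomb complex. It lies on the plus strand of chromosome 12, from 16810909 to 16826752, and had the largest read total of the members, 11118 fragments. It was at 51.3, 55.4, 57.2 and 52.5 CPM in FA and at 49.6, 47.5, 45.6 and 47.1 CPM in DE. All DE libraries lay below all FA libraries, but by a small step. The log2 fold change was -0.19 ± 0.09, with a 95% interval of -0.37 to -0.0017, and it did not pass the test after adjustment (edgeR adjusted p = 0.192).

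E2f7 and E2f8 encode the atypical E2Fs, which bind DNA without a DP partner, do not bind pocket proteins and repress S phase genes, E2f1 among them. E2f8 lies on the minus strand of chromosome 7, from 48866429 to 48882073. It was at 12.9, 11.4, 13.2 and 11.5 CPM in FA and at 21.8, 19.2, 21.9 and 21.2 CPM in DE. Both groups were tight and far apart, and the log2 fold change was 0.78 ± 0.1 (edgeR adjusted p = 0.00272). Exons of E2f8 share 610 bases with Gm2788 on the other strand, whose counts were not analysed here.

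E2f7 lies on the plus strand of chromosome 10, from 110745439 to 110787384, and was at 29.1, 18.0, 29.5 and 28.4 CPM in FA and at 33.0, 39.9, 30.8 and 42.0 CPM in DE. The groups did not overlap, but the highest FA library and the lowest DE library were close, and FA replicate 3 stood far below the other FA libraries. Its log2 fold change was 0.47 ± 0.16 (edgeR adjusted p = 0.108), so E2f7 was not called. Without FA replicate 3 the value was 0.32 (edgeR adjusted p = 0.152). Its exons share 86 bases with 1700020G17Rik on the other strand.

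Rb1 and Rbl1 encode the pocket proteins RB1 and p107. RB1 chiefly holds the activator E2Fs, and p107 pairs with E2F4 and is itself made from an E2F target gene. Rb1 lies on the minus strand of chromosome 14, from 73192858 to 73325951, and was at 41.0, 30.3, 42.3 and 31.5 CPM in FA and at 41.2, 29.2, 28.7 and 41.8 CPM in DE. Each group held a pair of libraries near 30 and a pair above 40 CPM, and in DE the low pair was replicates 3 and 5, of prefix 12. The log2 fold change was -0.05 ± 0.16 (edgeR adjusted p = 0.882), and it was 0.19 with the prefix as a term in the fit and 0.02 with library totals alone, none of which passed the test. Exons of Rb1 share 488 bases with Rcbtb2 and 408 bases with Lpar6 on the other strand. The strand setting of the counting is not stated, so reads there could not be assigned with certainty.

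Rbl1 lies on the minus strand of chromosome 2, from 157145893 to 157204534. It was at 14.5, 9.82, 15.5 and 15.6 CPM in FA and at 20.9, 19.4, 19.5 and 23.6 CPM in DE. The groups did not overlap, and FA replicate 3 was again the lowest library. The log2 fold change was 0.59 ± 0.15 (edgeR adjusted p = 0.0433), close to the threshold. The value in the libraries of prefix 11 alone was 0.68 (edgeR adjusted p = 0.0816). The call was lost when any single library other than FA replicate 6 was left out, with log2 fold changes of 0.45 to 0.64 and edgeR adjusted p-values of 0.054 to 0.111.

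Rbl2, the gene of the pocket protein p130, and the DP genes, whose proteins pair with E2F1 to E2F6 on DNA, had 0 of 3 called by edgeR, DESeq2 or limma-voom and 0 of 3 at an unadjusted p under 0.05. Tfdp1 ranged from 29.8 to 38.7 CPM in FA and from 31.0 to 36.5 CPM in DE, with a log2 fold change of -0.03 ± 0.1 that turned to 0.04 with library totals alone. Rbl2 was at 67.2, 57.1, 60.6 and 52.0 CPM in FA and at 69.3, 45.5, 40.9 and 66.0 CPM in DE, and its exons share 693 bases with Aktip and 892 with Gm45464 on the other strand. Tfdp2 was at 86.1, 82.0, 81.4 and 79.1 CPM in FA and at 143.1, 59.5, 57.2 and 116.8 CPM in DE. For Tfdp2, DE replicates 1 and 7 were above every FA library and DE replicates 3 and 5 below every FA library, so the DE libraries split by their name prefix. The DE libraries of prefix 11 and 12 did not overlap in 60.2% of all tested genes and in 7 of the 13 genes described here, so such a split is not particular to the family. Over all libraries its log2 fold change was 0.2 ± 0.26 (edgeR adjusted p = 0.661). With the prefix as a term in the fit it was 0.66 and called (edgeR adjusted p = 0.00924), as it was in the libraries of prefix 11 alone (edgeR adjusted p = 0.0218). In both fits Rb1 and Rbl2 moved to 0.19, above 0, and did not pass the test.

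**Figure D2:**
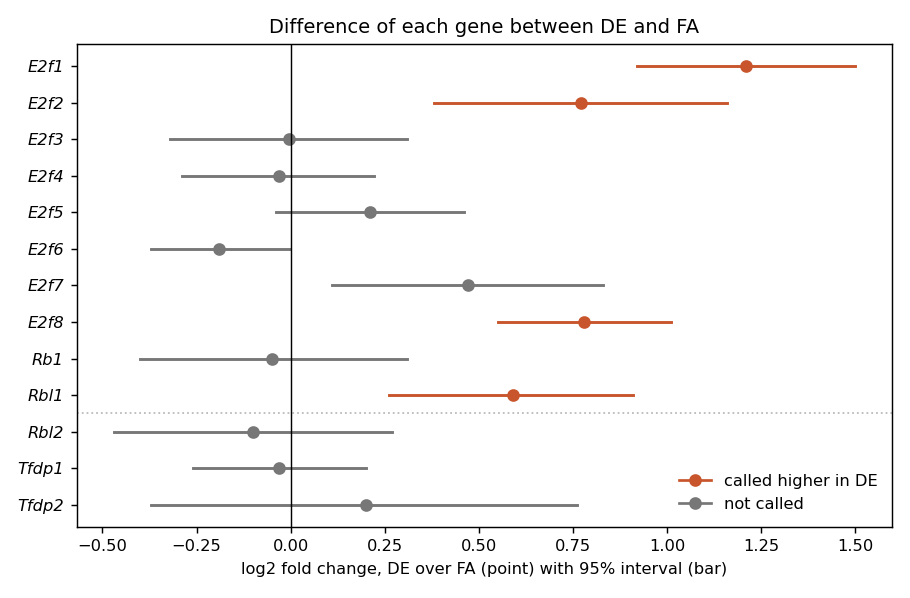
Log2 fold change of DE over FA (horizontal axis) for the 10 members, Rbl2 and the DP genes, with 95% intervals from the quasi-likelihood fit over 4 FA and 4 DE libraries. E2f1 lies at 1.21, E2f8 at 0.78, E2f2 at 0.77 and Rbl1 at 0.59, and the intervals of E2f3, E2f4, E2f5, Rb1, Rbl2 and both DP genes span 0.

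The log2 ratio of the normalized counts of 5 pairs of relatives was also taken within each library. The pairs were chosen after the fold changes were seen, so the ratios restate those differences library by library and are given with no test. E2f1 relative to E2f3 was -1.89, -1.93, -1.78 and -1.11 in FA and -0.64, -0.24, -0.36 and -0.64 in DE, and the groups were apart. Rbl1 relative to Rb1 averaged -1.4 ± 0.269 in FA and -0.738 ± 0.199 in DE (SD, n = 4), a difference of 0.66, with the groups also apart. Rbl1 relative to Rbl2 differed by 0.74, and FA replicate 6 and DE replicate 1 both lay at -1.73 after rounding. E2f2 relative to E2f3 differed by 0.75 and E2f8 relative to E2f7 by 0.29, and for both pairs the groups overlapped.

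**Figure D3:**
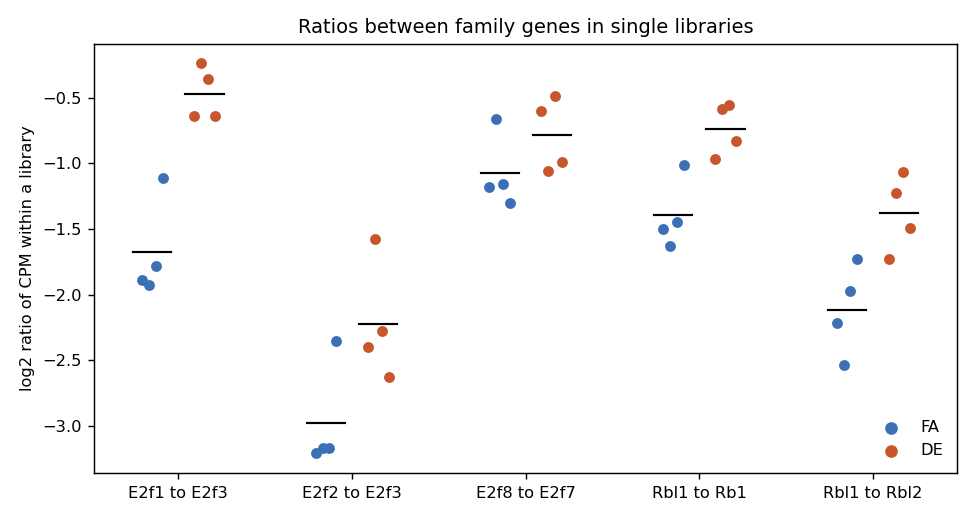
Log2 ratio of the normalized counts of 2 genes within a library (vertical axis) for 5 pairs, in FA (blue) and DE (orange) libraries, 4 points each with a black line at the group mean. The groups are apart for E2f1 to E2f3 and Rbl1 to Rb1, meet at -1.73 for Rbl1 to Rbl2, and overlap for E2f2 to E2f3 and E2f8 to E2f7.

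To compare levels between members, CPM were divided by the exon length of each gene in kilobases. On this scale E2f4 was the highest member in FA NCMs, at 11.7 ± 1.31 CPM per kb (SD, n = 4), followed by E2f6 at 9.55 ± 0.475, E2f3 at 6.6 ± 1.12 and Rb1 at 6.03 ± 1.03. E2f5 at 4.28 ± 0.376, E2f1 at 3.53 ± 0.513, E2f7 at 2.91 ± 0.613, Rbl1 at 2.31 ± 0.457, E2f8 at 2.25 ± 0.172 and E2f2 at 0.932 ± 0.138 CPM per kb came after. Neighbours in this FA order had overlapping ranges, except for E2f6 and E2f3, for Rb1 and E2f5, and for E2f8 and E2f2. In DE, E2f1 averaged 8.17 CPM per kb, in the third place by group mean. Its DE libraries, from 6.87 to 8.85, overlapped those of E2f6, from 8.06 to 8.75, and E2f1 was above E2f6 in DE replicates 5 and 7. They also overlapped those of E2f3, from 5.67 to 8.04, although E2f1 was above E2f3 within each of the 4 DE libraries. E2f4, from 10.4 to 13.0 CPM per kb, was above and E2f2, from 1.31 to 2.1, below every other member in DE.

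As a share of the levels per length of all 8 E2F genes, E2f1 made up 8.49% on average in FA, with its highest library at 10.4%, and 16.6% in DE, with its lowest library at 14.8%. The 3 activators together made up 24.0 to 27.8% in FA and 31.0 to 36.3% in DE, and the atypical pair 9.81 to 13.5% and 14.8 to 17.0%. E2f6 made up 21.1 to 23.8% in FA and 16.0 to 18.8% in DE. The repressors E2f4 and E2f5 made up 35.9 to 42.7% and 30.2 to 36.1%, with a narrow overlap. Since shares add to a whole, the lower shares of E2f4, E2f5 and E2f6 include the rise of the others. Among the 3 pocket genes, Rbl1 made up 11.5 to 17.7% in FA and 17.9 to 24.2% in DE.

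E2F genes are themselves known E2F targets, and their promoters were searched for the letters TTTCCCGC, TTTCGCGC, TTTGCCGC and TTTGGCGC on both strands. The windows were those of RefSeq on GRCm38.p6, from 250 bases before to 50 bases after a transcription start. Of the 7 members with a window, 4 held a match (57.1%), against 518 of 11394 tested genes with a window (4.55%), 704 of all 27025 genes with a window (2.6%) and 744 of 32851 windows (2.26%). Those 4 stretches are shown because they let members that moved and members that did not be compared, written 5′ to 3′ on the gene's strand with the matched letters in capitals.
E2f3: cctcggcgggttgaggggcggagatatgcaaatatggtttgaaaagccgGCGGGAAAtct
Rbl1: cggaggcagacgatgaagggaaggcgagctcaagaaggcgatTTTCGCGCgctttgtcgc
E2f7: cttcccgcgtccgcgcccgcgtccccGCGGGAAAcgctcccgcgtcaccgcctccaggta
E2f2: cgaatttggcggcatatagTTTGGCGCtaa

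The E2f3 stretch is chr13:29986064-29986123 on the minus strand and its match lies at bases -11 to -4 relative to the start. The Rbl1 stretch is chr2:157204535-157204594 on the minus strand, with the match at -18 to -11. The E2f7 stretch is chr10:110745215-110745274 on the plus strand, with the match at -198 to -191, and the E2f2 stretch is chr4:136172294-136172323 on the plus strand, with the match at 40 to 47 after the start. E2f3, whose mean was the same in both groups, thus held a match beside its start, as did Rbl1, which was called higher. The listed windows of E2f1, E2f6 and E2f8 start inside the annotated gene and held no match, which says only that these letters are not in those windows. Windows of E2f4, E2f5 and Rb1 were not analysed here.

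The genes that E2Fs are known to control were described from lists chosen with earlier results of these data known. Of 50 G1/S targets, 38 were called higher in DE NCMs and none lower, against the 3.58% of all tested genes called higher. In 42 of the 50 all DE libraries were above all FA libraries, against 7.43% of all tested genes. All 50 log2 fold changes were above 0, from 0.04 to 1.04, with a median of 0.67. Uhrf1, which guides maintenance of DNA methylation after replication, averaged 23.4 ± 5.07 CPM in FA libraries and 48.2 ± 1.67 CPM in DE libraries (SD, n = 4), a log2 fold change of 1.04 ± 0.14 (SE, edgeR adjusted p = 0.00272). Lig1, the ligase that joins Okazaki fragments, went from 21.9 ± 4.72 to 44.1 ± 2.45 CPM, with 1.02 ± 0.14 on the log2 scale (edgeR adjusted p = 0.003). Mcm6 and Mcm3, subunits of the replicative helicase, rose by log2 fold changes of 0.88 and 0.83, Chaf1a, a histone chaperone at the replication fork, by 0.75, and Pcna, the sliding clamp, by 0.73. The log2 fold changes of the 12 that were not called ran from 0.04 for Cdc25a to 0.82 for Gins2, named here after their values were seen. In the libraries of prefix 11 alone, 9 of the 50 were called and 40 had an unadjusted p under 0.05, all 40 higher. In that fit 2475 of all 14895 tested genes had an unadjusted p under 0.05.

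The G1/S targets with and without the E2F letters in a promoter window were also set side by side. Of 41 with a window, 17 held a match (41.5%), against 4.55% of all tested genes with a window. Of those 17, 14 were called higher and the median log2 fold change was 0.61. Of the 24 without a match, 19 were called higher and the median was 0.66. Among all tested genes with a window, 7.53% of those with a match and 3.42% of those without were called higher. The difference between these shares was not tested.

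G2/M genes are held down in resting cells by the DREAM complex, which contains E2F4, p107 or p130 and the MuvB core, and are switched on later by MuvB with B-Myb and FOXM1. Of 30 such genes, 9 were called higher in DE NCMs and none lower, against 3.58% of all tested genes called higher and 2.22% lower. Their log2 fold changes ran from -0.07 to 0.73 with the median at 0.35. Aurkb, the kinase of the chromosomal passenger complex, measured 12.4 ± 2.17 CPM in FA and 20.5 ± 1.16 CPM in DE, which is 0.73 ± 0.13 on the log2 scale (edgeR adjusted p = 0.0112). Its complex partners Birc5 and Incenp rose by 0.64 and 0.55, the mitotic kinase Cdk1 by 0.63, the spindle protein gene Nusap1 by 0.53 and the checkpoint kinase Bub1 by 0.52. In the libraries of prefix 11 alone none of the 30 was called by edgeR. There 15 had an unadjusted p under 0.05, all 15 higher, against 2475 of all 14895 genes tested in that fit. Over all libraries DESeq2 called 13. Without FA replicate 4 the count was 1, without FA replicate 2 it was 2 and without FA replicate 3 it was 5.

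Of the 7 genes of the MuvB and B-Myb group, the 2 regulatory factors were called higher and the 5 core subunits were not called. Over all tested genes 3.58% were called higher. Mybl2, the gene of B-Myb, averaged 6.56 ± 1.41 CPM in the FA and 12.6 ± 1.51 CPM in the DE libraries, a log2 fold change of 0.94 ± 0.16 (edgeR adjusted p = 0.0098). Foxm1 was at 35.9 ± 0.558 and 54.5 ± 2.5 CPM, with 0.6 ± 0.08 (edgeR adjusted p = 0.003). In the libraries of prefix 11 alone 1 of the 7 was called, and with the 25% difference built into the test edgeR called 0, with 2 at an unadjusted p under 0.05. The log2 fold changes of the core genes Lin9, Lin37, Lin52, Lin54 and Rbbp4 were -0.0021, 0.03, 0.11, -0.14 and 0.07.

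**Figure D4:**
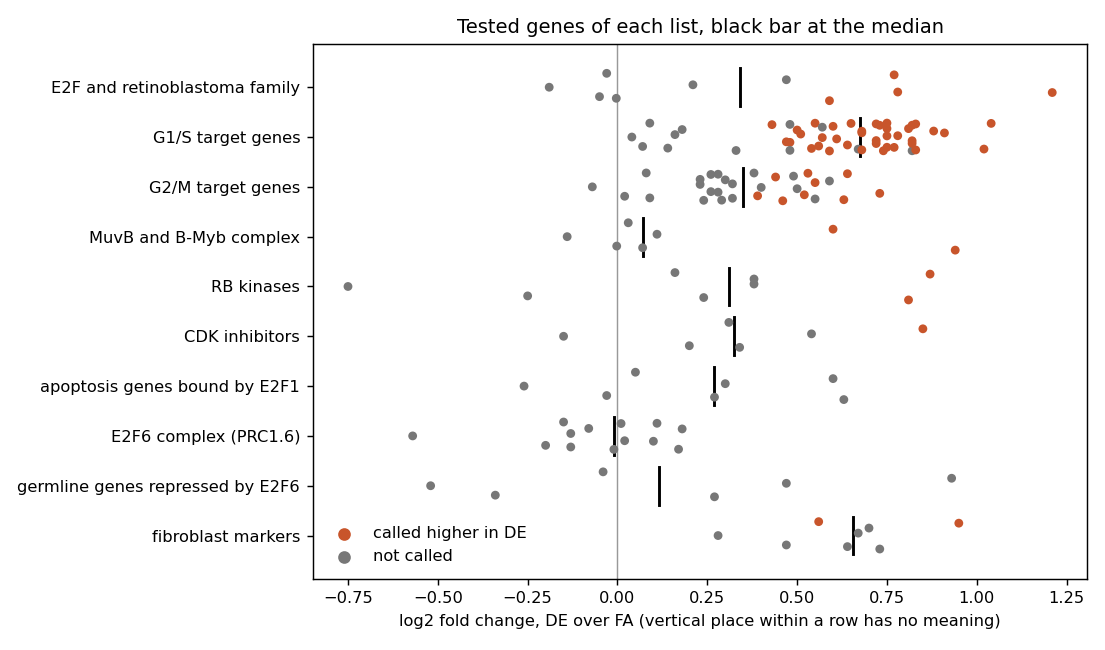
Log2 fold change of DE over FA (horizontal axis) for every tested gene of the family, of 8 lists of related genes and of the fibroblast markers, with a black bar at each median. The G1/S targets lie wholly above 0 with a median of 0.67, the G2/M targets have a median of 0.35, the E2F6 complex is centred at -0.01, and the 8 fibroblast markers have a median of 0.66.

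Several marker lists of other cells also had log2 fold changes mostly above 0. All 8 fibroblast markers had log2 fold changes above 0, with a median of 0.66. Of these, 2 were called higher, against 3.58% of all tested genes, Col1a1 at 0.95 and Dcn at 0.56, both genes of the extracellular matrix. All 6 tested erythroid markers were above 0, with a median of 0.41 and Slc4a1 called at 0.95. So were 4 of 5 leukocyte markers, with a median of 0.49 and Itgam, with 170 fragments over all libraries, called at 0.94. Of the endothelial markers 7 of 8 were above 0, with a median of 0.27. Smooth muscle and pericyte markers had 5 of 8 above 0 and a median of 0.16, and mesothelial markers 3 of 7 and a median of -0.09. The part of these cells in the differences of the family and of its targets was not tested.

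Upstream of the pocket proteins, 2 of the 8 G1 cyclin and kinase genes were called higher in DE, against 3.58% of all tested genes. Ccnd1, the gene of cyclin D1, which starts the phosphorylation of RB1 with CDK4 or CDK6, averaged 36.5 ± 5.09 CPM in FA libraries and 66.5 ± 9.13 CPM in DE libraries, a log2 fold change of 0.87 ± 0.13 (edgeR adjusted p = 0.00493). Ccne1, the gene of cyclin E1 and an E2F target itself, had a log2 fold change of 0.81 (edgeR adjusted p = 0.00781). In the libraries of prefix 11 alone, and with the 25% difference built into the test, 1 of the 8 was called. The other two D-type cyclin genes were not called, with log2 fold changes of -0.25 for Ccnd2 and 0.38 for Ccnd3, nor were Ccne2 at 0.16, Cdk2 at 0.24, Cdk4 at 0.38 and Cdk6 at -0.75. Cdk6 varied widely, with 8.93 ± 4.47 CPM in FA libraries and 5.4 ± 2.77 CPM in DE libraries, and had an edgeR adjusted p of 0.258.

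Of the inhibitors of these kinases, 1 of the 6 tested was called higher by the edgeR quasi-likelihood test, against 3.58% of all tested genes. It was Cdkn1c, the gene of p57. DESeq2 and the edgeR likelihood ratio test called 2 each. Cdkn1c was at 73.6 ± 6.26 CPM in DE against 41.0 ± 7.19 CPM in FA, a log2 fold change of 0.85 ± 0.13 (edgeR adjusted p = 0.00541). The others were at 0.34 for Cdkn1a, -0.15 for Cdkn1b, 0.2 for Cdkn2b, 0.31 for Cdkn2c and 0.54 for Cdkn2d, and Cdkn2a was below the filter. A cyclin of the pathway and an inhibitor of the same kinases were thus both higher in the same libraries.

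E2F1 can also switch on genes of apoptosis. Of the 7 tested, edgeR called none, DESeq2 and the edgeR likelihood ratio test called 1 each, and 4 had an unadjusted p under 0.05, 3 of them higher and 1 lower, as did 3828 of all 14966 tested genes. The closest was Bbc3, the gene of PUMA, with 8.42 ± 1.05 CPM in FA libraries and 13.0 ± 2.98 CPM in DE libraries and a log2 fold change of 0.63 (edgeR adjusted p = 0.0535). Bid was at 0.6, Pmaip1 at 0.3, Apaf1 at -0.03 and Bcl2l11 at -0.26, and Trp73 was below the filter.

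Of the 13 partners of E2F6 in its polycomb complex, edgeR, DESeq2 and limma-voom called 0, 1 had an unadjusted p under 0.05, and the median log2 fold change was -0.01. Of 12 germline genes that E2F6 is known to keep silent, 6 passed the filter, none was called by these tools, 1 had an unadjusted p under 0.05, and the median was 0.12. Among 6 genes for the turnover of E2F and RB1 proteins, 1 was called lower in DE, against 2.22% of all tested genes. It was Cul4a, a ubiquitin ligase scaffold, at 114.3 ± 3.44 CPM in DE against 153.3 ± 7.17 CPM in FA (log2 fold change -0.42, edgeR adjusted p = 0.019). This call was lost in both prefix fits, with the 25% difference built into the test, and without FA replicate 2, FA replicate 4 or DE replicate 3. The others were not called, at 0.35 for Skp2, 0.36 for Ccnf, -0.02 for Fzr1, -0.07 for Mdm2 and 0.05 for Psmd10.

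The genes whose profile over the 8 libraries was most like that of each called member were found from the root mean square difference of their centred log2 CPM, among 13116 genes. Nearest to E2f1 were Pclaf at 0.118, Lig1 at 0.134 and Uhrf1 at 0.147, against a median of 0.66 over all genes compared. Pclaf encodes a PCNA-binding protein, and all 3 of these genes act in DNA replication or in the maintenance that follows it. Nearest to E2f8 were 4930579G24Rik at 0.115, Traip at 0.117 and Foxm1 at 0.117, with a median of 0.448. Nearest to Rbl1 were Stil at 0.0401, Hcls1 at 0.0812 and the DNA polymerase alpha gene Pola1 at 0.0877, with a median of 0.431. For E2f2 they were Tpm4 at 0.0728, Gap43 at 0.0848 and Robo4 at 0.0864, with a median of 0.481, none of them in the lists of cell cycle genes used here. These distances are descriptions over 8 libraries and include the difference between the groups.

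The 4 called members differed in how far their calls depended on single choices. Over 19 alternatives, 8 of them leaving out 1 library each, E2f1 was called in all 19, with log2 fold changes of 1.12 to 1.28, and E2f8 in all 19, with 0.75 to 0.85. E2f2 was called in 11, with 0.55 to 0.87, and Rbl1 in 9, with 0.45 to 0.68. E2f3, E2f4, E2f5, E2f6, E2f7 and Rb1 were called in none, and the log2 fold changes ranged from 0.32 to 0.54 for E2f7 and from -0.21 to -0.12 for E2f6.

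**Figure D5:**
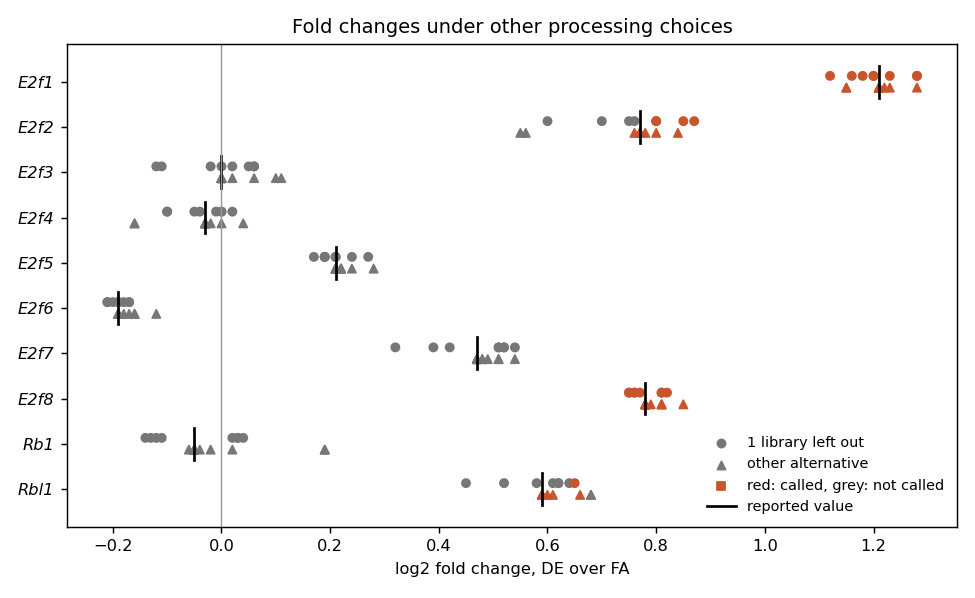
Log2 fold change of DE over FA (horizontal axis) for each member under the reported fit and 19 alternatives, with the colour showing whether the gene was called. E2f1 and E2f8 were called under all 19, E2f2 under 11 and Rbl1 under 9, and the values of E2f2, E2f7 and Rbl1 stayed above 0 throughout.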

How the data were processed

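Gene-level counts deposited by the authors for 8 NCM libraries were used as deposited. Per the methods, poly-A RNA was prepared with a stranded kit, sequenced, aligned to mm10 with TopHat, duplicates were marked and not removed with Picard, and fragments were counted with featureCounts. Whether counting used strand, and how reads with several matches were treated, is not given in the sources used here. The methods state fewer libraries per group than the 4 analysed, and all were used. Every column of counts was mapped to a sample by its name. Symbols were matched for 25275 of 27179 Entrez identifiers. The members and lists were chosen with earlier results of these data known.

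Counts were tested with edgeR 4.0.16 in R 4.3.3 (TMM factors, filterByExpr with a minimum count of 10, quasi-likelihood F test, exposure as the only term), with Benjamini-Hochberg adjustment over all 14966 tested genes. A call needed an adjusted p of 0.05 or less and a 25% difference. CPM are normalized with the TMM factors, and their precision is limited by 4 libraries per group (biological coefficient of variation 15.95%). A check for a library deposited more than once found no pair of replicates within sampling noise (lowest chi-square per gene 5.37). The script was tested on simulated data. Alternatives were DESeq2 1.42.0, limma-voom 3.58.1, the edgeR likelihood ratio test, a 25% difference built into the test, other scalings and filters, the name prefix as a term, prefix 11 libraries alone, and each library left out. Ratios within libraries were chosen after the data were seen and are given without a test.

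Named were all members, the third pocket gene and the DP genes, the 3 genes nearest to each called member, every gene of lists of up to 8, and the 6 called genes of longer lists with the smallest adjusted p, with exceptions stated. Single values of some listed genes are not reported here. Exon lengths and overlaps came from the GENCODE annotation and promoter windows from RefSeq, both on GRCm38.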

Additional observations from a re-analysis of the deposited data

Results flagged for a closer look

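E2f7 in FA replicate 3 was at 18.0 CPM, far below the nearest of the other FA libraries at 28.4 CPM. The gap to that library divided by the range of the 4 FA libraries was 0.905, above Dixon's 95% critical value for 4 samples. It was the 1 value that stood apart in this way among 26 groups of 4 libraries, the 10 members, Rbl2 and the DP genes in FA and DE, and chance alone gives such a gap in about 1 of 20 groups.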

How the results depend on the processing

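No paired analysis was made, since each mother breathed either FA or DE and no label links an FA library to a DE library. Genes called, 868 in all, numbered 1633 with DESeq2, 1603 with the likelihood ratio test, 114 with the 25% difference built into the test, 448 with the prefix as a term, 260 with prefix 11 libraries alone and 237 to 1168 with 1 library left out, the lowest without FA replicate 4. With library totals alone 78.7% of 1020 calls were higher in DE, against 61.8% of 868, and the median log2 fold change of all tested genes was 0.08. Calls among the members were 2 rather than 4, E2f1 and E2f8, with the 25% difference built in, the prefix as a term and prefix 11 alone, and 2 to 4 with 1 library left out. The 38 G1/S calls became 6 with the 25% difference built in, with 40 at an unadjusted p under 0.05, 9 with prefix 11 alone and 21 to 38 with 1 library left out (22 without FA replicate 2, 24 without FA replicate 3, 21 without FA replicate 4 or DE replicate 3). The 9 G2/M calls became 0 with the 25% difference built in, with 12 at an unadjusted p under 0.05, 0 with prefix 11 alone and 1 to 12 with 1 library left out. With the 25% difference built in, 1487 of all 14966 tested genes had an unadjusted p under 0.05. The cause of these changes in the counts was not tested. Log2 fold changes near 0 changed sign for E2f3 (-0.0033 as reported, 0.06 with library totals, 0.11 with the prefix as a term, 0.1 with prefix 11 alone, -0.12 to 0.06 with 1 library left out), E2f4 (0.04 with library totals, -0.1 to 0.02 with 1 library left out), Rb1 (0.02 with library totals, 0.19 with the prefix as a term or prefix 11 alone, -0.14 to 0.04), Rbl2 (0.19 in both prefix fits, -0.23 to 0.02) and Tfdp1 (0.04 with library totals, -0.09 to 0.02), and none of these passed the test. Tfdp2, at 0.2 as reported, ran from -0.08 to 0.37 with 1 library left out and did not pass there. In both prefix fits Tfdp2 was at 0.66 and called (edgeR adjusted p = 0.00924 with the prefix as a term and 0.0218 with prefix 11 alone).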

Other observations

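The DE libraries of prefix 11 and prefix 12 did not overlap in 7 of the 13 family genes described, against 60.2% of all tested genes, so the share in the family was close to that over all genes. Rb1 was at 41.2 and 41.8 CPM in the DE libraries of prefix 11 and at 29.2 and 28.7 CPM in those of prefix 12, Rbl2 at 69.3 and 66.0 against 45.5 and 40.9 CPM, and Tfdp2 at 143.1 and 116.8 against 59.5 and 57.2 CPM. The called Rbl1, at 20.9 and 23.6 against 19.4 and 19.5 CPM, was also split, as were E2f2, at 6.38 and 7.04 against 10.3 and 7.26 CPM, E2f4, at 25.8 and 25.5 against 28.9 and 31.9 CPM, and Tfdp1, at 33.9 and 31.0 against 36.5 and 34.1 CPM, these last 3 with prefix 12 higher. E2f3, E2f5, E2f6 and E2f7 overlapped. E2f1, at 21.7 and 27.9 against 26.1 and 27.4 CPM, and E2f8, at 21.8 and 21.2 against 19.2 and 21.9 CPM, overlapped as well. There were 2 libraries on each side and no FA library of prefix 12, so the split was not tested and prefix 12 could not be compared with FA libraries of its own.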
